A study of Mus musculus with 10 samples.

Results

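The mitochondrial respiratory chain and its ATP synthase were followed through the nuclear genes that encode them, in gonadal somatic cells of mouse embryos with and without maternal vitamin C. The genes were chosen by symbol alone: all genes in the table whose symbols start with Nduf followed by a, b, c, s or v, with Uqcr, with Cox and a digit from 4 to 8, or with Atp5, together with Sdha, Sdhb, Sdhc and Sdhd. Of 13578 genes, 83 matched. They were 40 genes of complex I, 4 of complex II, 8 of complex III, 14 of complex IV and 17 of complex V. By their known products, 75 of the 83 are subunits and 8 are not. Ndufaf1, Ndufaf2, Ndufaf3 and Ndufaf4 are assembly factors of complex I, and Atp5sl (now Dmac2) is another. Atp5s (now Dmac2l) is coupling factor B, and Cox7a2l is a factor of respiratory supercomplexes. Cox4nb (now Emc8) belongs to a membrane complex of the endoplasmic reticulum and only shares its name and its chromosomal neighbourhood with Cox4i1.

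All embryos, including those of the supplied group, were female Gulo-/- animals on a C57BL/6 background at embryonic day 13.5. Mice without Gulo, the last enzyme of ascorbate synthesis, depend on the diet for vitamin C, so neither group is wild type. In the supplied group (n = 5) the dams received vitamin C at a physiological level, and in the withdrawn group (n = 5) it was taken away over the opening weeks of gestation. Each sample was the Oct4-negative fraction sorted from the gonads of 1 embryo, with 2 ng of total RNA as input, and the comparison asks how the gonadal soma responds to withdrawal. Embryos are numbered 1 to 5 in each group. Embryos 2 and 3 of a group share the leading number of their titles, and the labels do not say whether that number marks a litter, so p-values measure only the spread between these samples.

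The respiratory chain sits in the inner mitochondrial membrane. Complexes I and II pass electrons from NADH and succinate to ubiquinone, complex III passes them on to cytochrome c, and complex IV hands them to oxygen. Complexes I, III and IV pump protons meanwhile, and complex V, the ATP synthase, lets the protons back through a rotor and makes ATP. Most subunits are nuclear genes, and a small catalytic core is encoded by mitochondrial DNA.

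Values are regularised log2 (rlog) values as the authors deposited them, and every difference given is withdrawn minus supplied on that scale, which pulls weakly expressed genes towards their mean. Sample medians over all genes lay between 9.12 and 9.14, and the read depth is unknown. All 10 gonadal soma markers looked for, among them Wt1, Gata4 and Nr5a1, were measured, with list means from 11.75 to 11.91 over the embryos. Of 14 germ cell markers 4 were measured, and Ddx4, Dazl and Pou5f1 were not among them. The neural list (8 of 11 markers measured) stood apart in supplied embryos 2 and 3, with means of 8.88 and 8.36 against 7.49 to 7.75 in the other 8 embryos. In bulk RNA, fewer cells of a type and less RNA per cell cannot be told apart.

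Per transcript length, respiratory chain genes were among the better expressed genes of these cells. Levels were compared between genes after subtracting the log2 of the transcript length in kb, giving a length-adjusted level on the log2 scale. On it, 77 of the 83 genes lay above the median gene and 31 lay in the top 10%. The median level was 9.88 for the 83 genes and 7.76 for all genes, but 9.62 and 9.12 before the subtraction. Most of the gap thus came with the adjustment. It takes reads to grow with transcript length, which was not tested. The median percentile among all genes with a known length was 89.0 for the 83 genes. By complex it was 95.0 for complex V, 92.4 for complex III, 90.5 for complex IV, 85.0 for complex I and 84.2 for complex II. The highest levels per length belonged to Cox6c, a small subunit of cytochrome c oxidase (12.62), and to Atp5a1 and Atp5b (12.33 and 12.19), the alpha and beta subunits that form the catalytic head of the ATP synthase. The highest in complexes III and II were Uqcrb (11.31) and the flavoprotein Sdha (10.63).

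The 6 genes under the median gene were 5 of the 8 that encode no subunit (Ndufaf1, Ndufaf3, Ndufaf4, Atp5s and Atp5sl) and 1 subunit, Cox4i2. Ndufaf3 (6.22) was the lowest of complex I and Atp5s (6.11) the lowest of complex V. Subunit isoforms differed widely in level. Cox4i1, the ubiquitous form of subunit IV, stood at 11.29 per length, and Cox4i2, the form known from lung and from the response to low oxygen, at 5.72, 5.57 lower and at percentile 18.7. Cox6b1 stood at 10.22 and Cox6b2, known as a testis isoform, at 8.20, a gap of 2.03. The muscle isoforms Cox6a2 and Cox7a1 and the Ndufa4 paralogue Ndufa4l2 were not analysed here, while their counterparts Cox6a1, Cox7a2 and Ndufa4 stood at 10.54, 9.30 and 10.20 per length. The 3 genes for the identical c-ring protein of the ATP synthase, which differ in their import sequences, were close together at 10.80 (Atp5g2), 10.73 (Atp5g3) and 9.91 (Atp5g1).

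**Figure D1:**
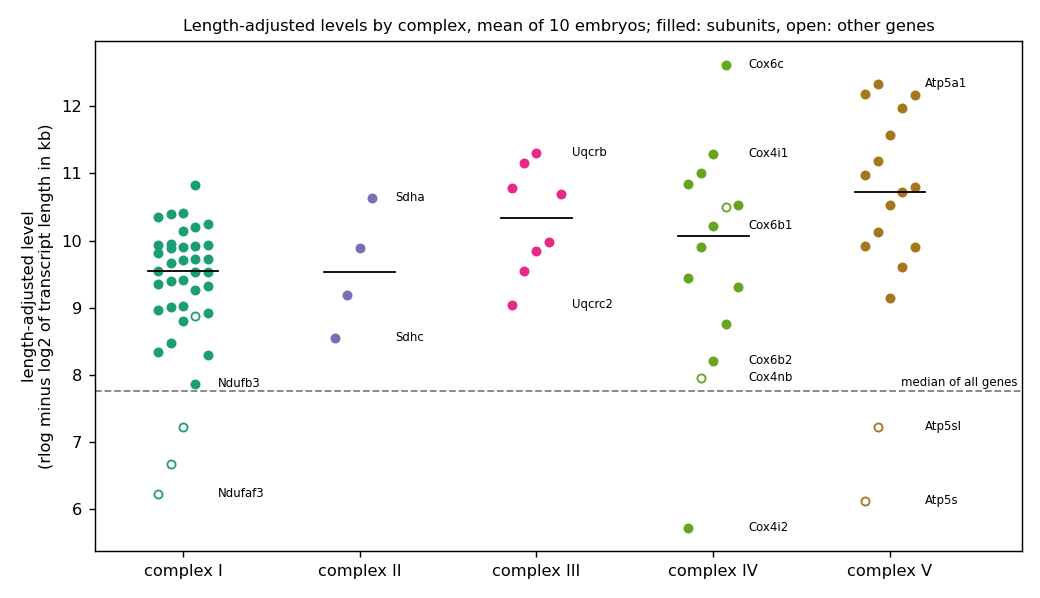
Length-adjusted level (rlog minus log2 of the transcript length in kb, mean of 10 embryos) of the genes by complex, with filled circles for subunits, open circles for the 8 other genes, a bar at each complex's median and a dashed line at the median of all genes. All but 6 genes lie above the dashed line, and Cox4i2 at 5.72 is the lowest subunit.

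Promoters were read for the 70 of 83 genes with an entry in RefSeq's table for GRCm38.p6, from 250 bases before the start to 50 after it. Those of the other 13 were not read here, among them Atp5a1, Cox4i1, Cox4i2, Cox4nb, Cox6c, Ndufa2, Ndufb9, Ndufs1, Sdhc, Uqcrb, Uqcrc2 and Uqcrq. Exact matches on either strand were counted for the binding motifs of 3 regulators known for respiratory genes and for the TATA box. The GABPA (ETS) motif CCGGAAG was in 17 of 70 windows (24.3%), against 19.1% of the windows of all genes tested and 9.93% of all windows in that table. The NRF1 motif GCATGCGC was in 11 (15.7%, against 5.88% and 3.05%) and the YY1 motif AAGATGGC also in 11 (15.7%, against 5.05% and 3.19%). At least 1 of these was in 33 windows (47.1%, against 27.3% and 14.9%). The TATA box TATAAA was in 5 (7.14%, against 8.85% and 15.7%). The GABPA and YY1 motifs share the letters AAG at their ends and can overlap, and the NRF1 motif can match both strands at the same place. By complex, the YY1 motif was in 7 of 36 windows of complex I and 4 of 16 of complex V and in none of those of complexes II, III and IV, and a match of letters shows no binding.

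The upstream sequences of 4 genes named in the diet comparison are shown, because Cox7b and Ndufa3 are the subunits whose differences were largest in each direction, and Atp5g2 and Atp5h those furthest apart within the ATP synthase. The fifth is the interval between Atp5j, which encodes coupling factor F6 of the ATP synthase stalk, and Gabpa, which encodes the DNA-binding subunit of GABP, since these genes start 148 bases apart in opposite directions. All are RefSeq sequence of GRCm38.p6, 5′ to 3′, and run along the gene up to the base before its start, except the last, which is the plus strand. Capitals mark matches to the motifs above on either strand. Cox7b lies at chrX:106015450-106015699 (plus strand) with 0 matches, and Ndufa3 at chr7:3617123-3617372 (plus strand) with a TATA box letter match far upstream. The window of Ndufa3 also holds a YY1 match after the start, outside the printed stretch. Atp5g2 lies at chr15:102671048-102671297 (minus strand) with overlapping NRF1 matches, Atp5h at chr11:115419920-115420169 (minus strand) with a GABPA match, and the interval at chr16:84834977-84835123 with a GABPA and a YY1 match.
Cox7b: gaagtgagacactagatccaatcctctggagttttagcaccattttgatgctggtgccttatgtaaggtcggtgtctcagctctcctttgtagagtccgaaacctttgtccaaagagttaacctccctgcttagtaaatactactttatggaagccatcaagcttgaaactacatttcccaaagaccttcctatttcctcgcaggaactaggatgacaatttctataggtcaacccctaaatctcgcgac
Ndufa3: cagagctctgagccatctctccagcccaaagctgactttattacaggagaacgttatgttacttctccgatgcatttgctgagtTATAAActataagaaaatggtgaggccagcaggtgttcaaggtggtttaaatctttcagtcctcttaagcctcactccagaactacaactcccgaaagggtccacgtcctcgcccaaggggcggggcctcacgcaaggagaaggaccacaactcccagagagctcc
Atp5g2: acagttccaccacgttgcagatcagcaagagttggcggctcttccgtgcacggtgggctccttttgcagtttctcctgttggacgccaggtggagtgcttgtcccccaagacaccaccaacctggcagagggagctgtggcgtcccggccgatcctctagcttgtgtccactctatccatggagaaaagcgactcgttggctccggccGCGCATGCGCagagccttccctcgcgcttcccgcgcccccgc
Atp5h: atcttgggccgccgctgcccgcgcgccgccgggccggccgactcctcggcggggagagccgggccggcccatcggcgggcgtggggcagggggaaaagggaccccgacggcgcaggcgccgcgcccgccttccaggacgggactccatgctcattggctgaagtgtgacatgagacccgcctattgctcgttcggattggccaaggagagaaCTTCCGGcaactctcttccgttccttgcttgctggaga
Atp5j-Gabpa interval: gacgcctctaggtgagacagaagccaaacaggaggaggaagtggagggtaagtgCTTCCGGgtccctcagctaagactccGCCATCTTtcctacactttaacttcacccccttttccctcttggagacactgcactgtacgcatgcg

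Short divergent intervals of this kind were common. Of the 70 genes, 19 (27.1%) had another gene starting in the opposite direction within 1000 bases, against 19.2% of the genes tested. In 15 of the pairs both genes were measured, and 10 had differences of the same sign. With 50.2% of all genes above 0, unlinked genes would often share a sign too, and the count was not tested. The partners with an unadjusted p under 0.05 were Rps28 and Mrpl47. Rps28, a ribosomal protein gene that starts 10 bases from Ndufa7, was at 0.11 (unadjusted p = 0.0330, limma adjusted p = 0.928) beside 0.087 for Ndufa7. Most genes of its class were also above 0, 59 of 75 cytosolic ribosomal protein genes. Mrpl47, a mitochondrial ribosomal protein gene, was at -0.093 (unadjusted p = 0.0464, limma adjusted p = 0.931) beside 0.023 for its partner Ndufb5. Gabpa was at -0.032 and Atp5j at -0.088.

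No respiratory chain gene passed the test for withdrawal of vitamin C. By limma, 0 of 83 had an adjusted p under 0.05, where 3 of all 13578 genes did (0.0221%), and the smallest adjusted p among the 83 was 0.900. At an unadjusted p under 0.05, 1 gene was higher in withdrawn embryos (Ndufa3), where 2.45% of all genes were, and 3 were lower (Cox4i2, Cox7b and Cox4nb), where 2.84% of all genes were. In 0 of 83 genes did the groups lie apart, where they did in 110 of all genes (0.810%). Differences were 40 above 0 and 43 below, with a median of -0.0021, and over all genes the median was 0.00021 with 50.2% above 0. Of the 83 differences 54 were under 0.05 in size and 4 over 0.1. The 95% interval included 0 for 79 genes, and the intervals of all 83 reached no further than -0.244 and 0.217, or 0.844-fold and 1.16-fold on the rlog scale. Exact permutation of the difference in means, two-sided over 252 orders with a smallest possible p of 0.00794, gave an unadjusted p under 0.05 for 2 genes, Cox4i2 and Ndufa3.

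**Figure D2:**
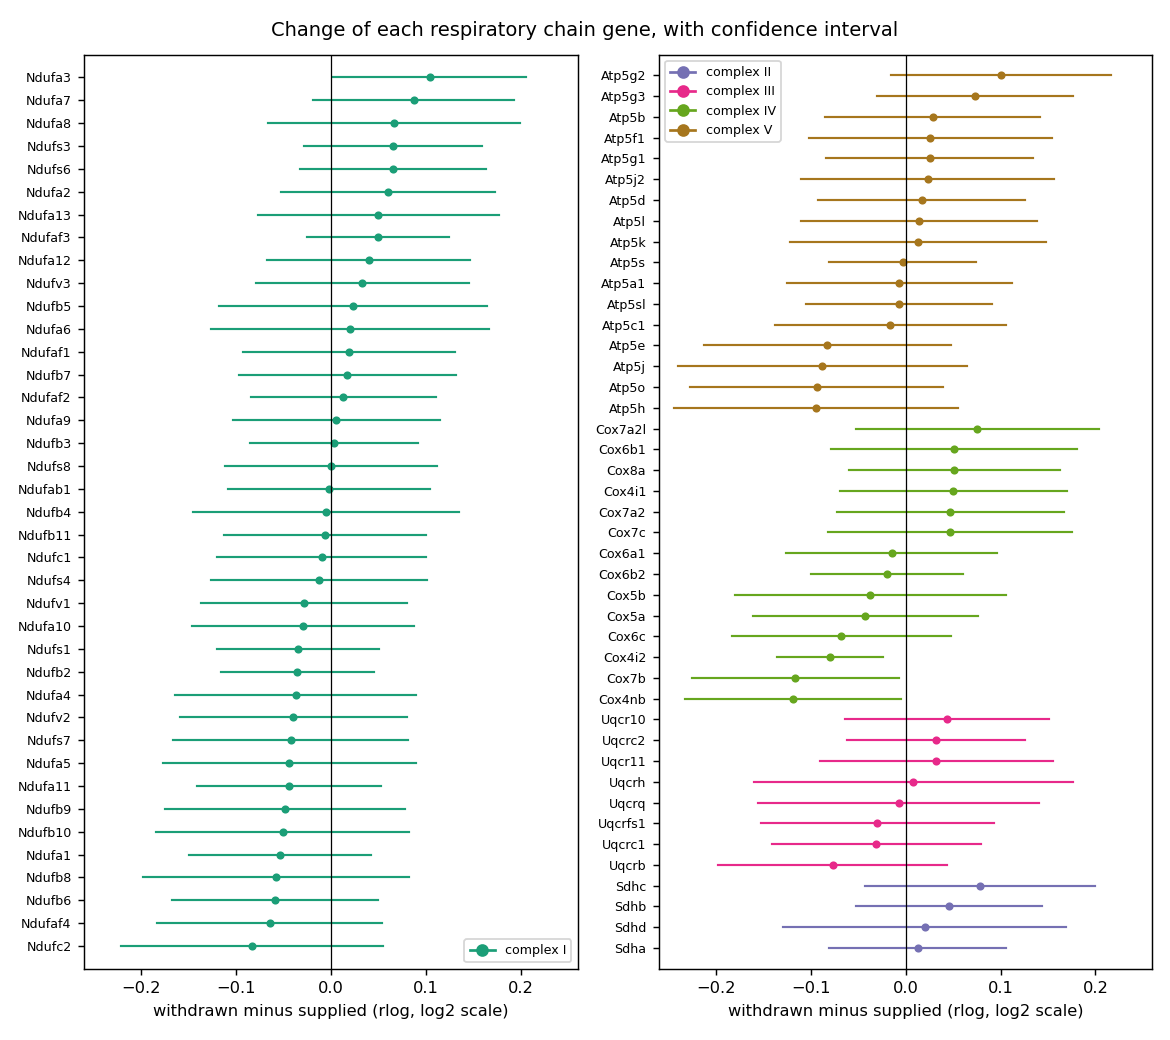
Difference between withdrawn and supplied embryos (rlog, log2 scale) for each gene reported here, with the 95% interval from limma (n = 5 embryos a group), complex I on the left and complexes II to V on the right. All but 4 intervals cross 0 and none reaches beyond -0.244 or 0.217.

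Complex I, the entry point for electrons from NADH, had 17 of 40 genes above 0 and a median of -0.0055. Of the 7 core subunits, which carry the flavin, the iron-sulfur clusters and the quinone site, 1 was above 0, Ndufs3 (0.065, interval -0.029 to 0.16). The others ranged from -0.043 (Ndufs7) to -0.00043 (Ndufs8). Ndufs1, the largest core subunit, was at -0.035 and Ndufv1, which binds NADH, at -0.029. Of 10 membrane arm subunits of the Ndufb series 3 were above 0, as were 10 of 19 other accessory subunits and 3 of 4 assembly factors. Among the assembly factors Ndufaf3 was at 0.049 and Ndufaf4 at -0.065.

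Ndufa3, a small accessory subunit of the membrane arm, stood highest relative to the supplied group. Supplied embryos 1 to 5 had rlog values of 8.84, 8.82, 8.78, 8.77 and 8.80, and withdrawn embryos 9.06, 8.87, 8.83, 8.85 and 8.92. The withdrawn embryos lay above all but 1 of the supplied ones, and withdrawn embryo 1 was far above the rest. The group means were 8.80 ± 0.0281 and 8.91 ± 0.0916 (SD, n = 5 each), a difference of 0.10 (SE 0.0480, unadjusted p = 0.0452, limma adjusted p = 0.931). Without withdrawn embryo 1 the difference was 0.065 (limma adjusted p = 0.857, unadjusted p = 0.141). Exons of Ndufa3 overlap those of Tfpt on the other strand (0.052), and no source used here says whether reads were counted by strand, so its value is uncertain. Ndufa7, an accessory subunit of the matrix arm, was the next highest at 0.087 (interval -0.019 to 0.19, limma adjusted p = 0.961). At the other end was Ndufc2, a membrane arm subunit, at -0.083 (interval -0.22 to 0.054). Ndufa4, first assigned to complex I and now counted with complex IV, was at -0.037.

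Complex II, which is also succinate dehydrogenase of the TCA cycle, had all 4 of its genes above 0, with a median of 0.033. Sdhc, a membrane anchor, had values of 10.26, 10.30, 10.19, 10.06 and 10.05 in supplied and 10.38, 10.21, 10.16, 10.30 and 10.20 in withdrawn embryos. Supplied embryos 4 and 5 were the lowest and withdrawn embryo 1 the highest, and the groups overlapped. Its difference was 0.078 (interval -0.043 to 0.20, limma adjusted p = 0.978). Sdhb, the iron-sulfur subunit, was at 0.046, the second anchor Sdhd at 0.020 and Sdha at 0.013, with intervals that included 0. Without withdrawn embryo 1, or without supplied embryo 5, 2 of the 4 were above 0.

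Complex III, the cytochrome bc1 complex, was split, with 4 of 8 genes above 0 and a median of 0.00041. The core subunits Uqcrc1 and Uqcrc2 were at -0.031 and 0.032, and the Rieske iron-sulfur protein gene Uqcrfs1 at -0.030. Uqcrb, which helps form the ubiquinone site, had values of 10.62, 10.47, 10.48, 10.30 and 10.35 in supplied and 10.46, 10.31, 10.29, 10.38 and 10.40 in withdrawn embryos. Supplied embryo 1 was the highest, and the groups overlapped widely. That difference, -0.077 (interval -0.20 to 0.044, limma adjusted p = 0.978), was the lowest of the complex, and that of Uqcr10, a small subunit, the highest at 0.044 (interval -0.064 to 0.15). The count of genes above 0 was 2 without withdrawn embryo 1.

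Complex IV, cytochrome c oxidase, held 2 of the 4 genes with an unadjusted p under 0.05, the subunits Cox4i2 and Cox7b, both lower in withdrawn embryos. The 14 genes grouped with it by symbol, Cox4nb among them, had 6 above 0 and a median of -0.017. Cox4i2 had the smallest p of the 83. In supplied embryos its values were 5.27, 5.37, 5.32, 5.25 and 5.28, and in withdrawn embryos 5.16, 5.22, 5.22, 5.25 and 5.23. Supplied embryo 2 was the highest and withdrawn embryo 1 the lowest, and the groups overlapped only through supplied embryo 4 and withdrawn embryo 4. Its means were 5.30 ± 0.0471 and 5.22 ± 0.0347 (SD, n = 5 each), a difference of -0.079 (SE 0.0265, interval -0.14 to -0.024, unadjusted p = 0.00812, limma adjusted p = 0.900). The unadjusted p stayed under 0.05 in 20 of 20 refits with other settings or without 1 embryo. These refits use the same embryos, and the refit without a filter repeats the main fit, because the filter removed 0 genes. Among refits without 1 embryo the difference lay nearest to 0, at -0.061, without supplied embryo 2 (limma adjusted p = 0.999). Cox4i1, the abundant isoform, was at 0.050 (interval -0.069 to 0.17).

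Other genes were high in the same supplied embryos as Cox4i2. Epas1, which encodes the hypoxia-inducible factor HIF-2 alpha, had values of 10.31, 11.08, 10.58, 10.41 and 10.10 in supplied and 10.03, 10.18, 10.24, 10.25 and 10.21 in withdrawn embryos. It was highest in supplied embryos 2 and 3 (difference -0.32, unadjusted p = 0.0193, limma adjusted p = 0.922). That difference was the lowest in a list of 10 hypoxia regulators, which did not move together. Of the 10 genes, 5 were above 0 and 5 below, with a median of -0.0029. Chgb, the neuroendocrine granule protein chromogranin B of the neural list, was at 12.42 and 10.76 in supplied embryos 2 and 3 against 6.82 to 8.36 in the other 8. Over the neural list 7 of 8 markers were below 0, with list means from 7.49 to 8.88 in supplied and from 7.55 to 7.65 in withdrawn embryos. Of the 10 endothelial markers, all measured, 8 were below 0 (median -0.045). Their list means ran from 9.07 to 9.25 in supplied and from 8.97 to 9.10 in withdrawn embryos, lowest, like Cox4i2, in withdrawn embryo 1. Within the supplied group the list was unlike Cox4i2, at 9.25 in embryo 4 and 9.07 in embryos 2 and 3. The lowest of the endothelial markers was Eng, the TGF-beta co-receptor endoglin, at -0.39 (limma adjusted p = 0.210, unadjusted p = 0.000209). Of 9 macrophage markers measured 7 were below 0 (median -0.031), with list means from 7.33 to 7.59 in supplied and from 7.29 to 7.55 in withdrawn embryos. The part of neural, endothelial and macrophage cells in the Cox4i2 and Epas1 values was not tested.

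Cox7b, a small subunit needed for assembly of the enzyme, had values of 9.97, 10.04, 9.96, 9.99 and 9.89 in supplied and 9.99, 9.74, 9.76, 9.86 and 9.91 in withdrawn embryos. Withdrawn embryos 2 and 3 were the lowest, and withdrawn embryos 1 and 5 lay among the supplied ones. The means were 9.97 ± 0.0548 and 9.85 ± 0.104 (SD, n = 5 each), a difference of -0.12 (SE 0.0516, unadjusted p = 0.0380, limma adjusted p = 0.928), or -0.15 without withdrawn embryo 1 (limma adjusted p = 0.787). Its unadjusted p was under 0.05 in 10 of 20 refits. The printed upstream stretch of Cox7b held none of the motifs.

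Cox4nb, no gene of the oxidase, showed another pattern. Supplied embryos stood at 10.39, 10.40, 10.43, 10.19 and 10.16 and withdrawn ones at 10.19, 10.19, 10.16, 10.23 and 10.21. Supplied embryos 1, 2 and 3 were high, and supplied embryos 4 and 5 lay among the withdrawn ones. The difference was -0.12 (SE 0.0540, unadjusted p = 0.0421, limma adjusted p = 0.931), with an unadjusted p under 0.05 in 11 of 20 refits, and exact permutation gave 0.127. Its exons overlap those of Cox4i1 on the other strand, so the values of both are uncertain. The same holds for Ndufs1, Ndufs3, Ndufb5, Ndufaf3, Uqcrb, Uqcrc2, Cox5a, Cox6c, Atp5a1, Atp5d, Atp5f1, Atp5j and Atp5l, whose exons overlap a gene on the other strand, and for Atp5o, which shares exons with Donson. Atp5c1, Atp5f1, Atp5k, Atp5l and Cox5b have pseudogenes that could share their reads. The remaining subunits had intervals that included 0. Cox6c was at -0.068, Cox5a and Cox5b at -0.043 and -0.037, Cox6b1 and Cox6b2 at 0.051 and -0.020, Cox6a1 at -0.015, Cox7a2 at 0.047 and Cox8a at 0.051. Highest was the supercomplex factor Cox7a2l at 0.075 (interval -0.053 to 0.20).

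**Figure D3:**
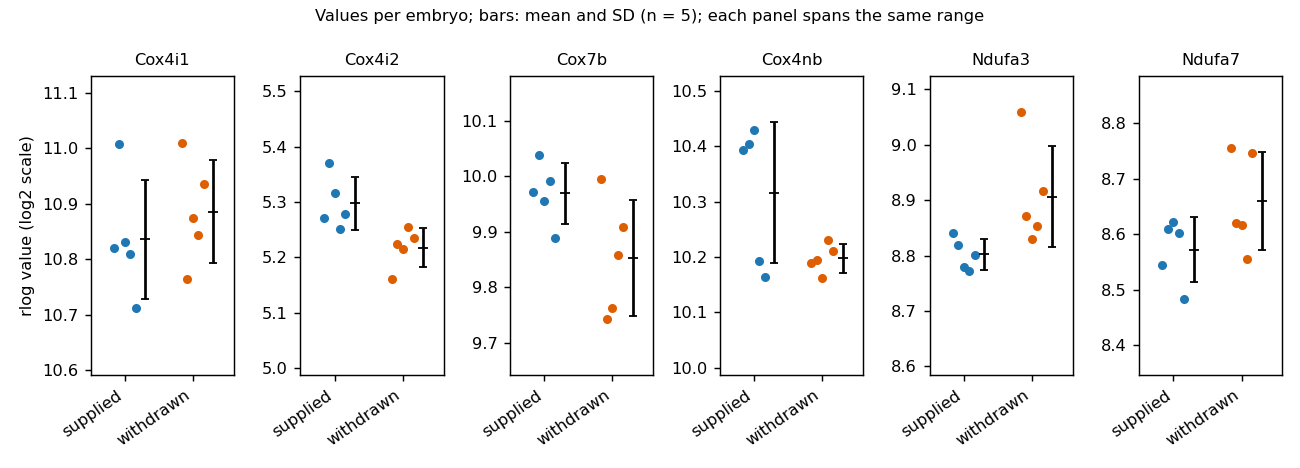
Values per embryo (rlog, log2 scale, axes of equal span) of 6 genes in supplied (blue) and withdrawn (orange) embryos, with the mean and SD of each group (n = 5). In Cox4i2 1 withdrawn embryo reaches the lowest supplied one, in Cox4nb supplied embryos 1 to 3 stand apart from the other 7 points, and in Ndufa3 withdrawn embryo 1 is far above the rest.

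Complex V had 9 of 17 genes above 0 and a median of 0.013, and its parts lay on opposite sides of 0. The catalytic head genes Atp5a1 and Atp5b were at -0.0065 and 0.029, and Atp5c1, Atp5d and Atp5e, of the central stalk, at -0.016, 0.017 and -0.083. Atp5e was lowest in withdrawn embryo 2, at 8.09 against 8.32 to 8.49 in the other 9. All 3 c-ring genes were above 0, and so were all 3 small membrane subunits (Atp5j2, Atp5k and Atp5l, 0.013 to 0.023). The intervals of these small subunits lay within -0.12 and 0.16. In each of them withdrawn embryo 1 was the highest withdrawn embryo, and the sign turned without it. Of the 4 genes of the peripheral stalk, which holds the head against the turning rotor, Atp5h, Atp5o and Atp5j were at -0.095, -0.094 and -0.088, and Atp5f1 at 0.026. Atp5s was at -0.0030.

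Atp5g2 led the c-ring genes. Its values were 9.51, 9.63, 9.67, 9.51 and 9.55 in supplied and 9.85, 9.66, 9.55, 9.63 and 9.68 in withdrawn embryos. Withdrawn embryo 1 was the highest, supplied embryos 1 and 4 the lowest, and the groups overlapped. The difference was 0.10 (interval -0.015 to 0.22, unadjusted p = 0.0842, limma adjusted p = 0.956), and 0.056 without withdrawn embryo 1 (limma adjusted p = 0.882). Atp5g3 was at 0.073 and Atp5g1 at 0.025. Atp5h, subunit d of the stalk, had values of 11.54, 11.73, 11.61, 11.37 and 11.43 in supplied and 11.67, 11.37, 11.32, 11.42 and 11.43 in withdrawn embryos. Withdrawn embryo 1 lay among the high supplied ones and the other withdrawn embryos among the low ones. The difference of -0.095 (interval -0.24 to 0.055, limma adjusted p = 0.978) was -0.15 without withdrawn embryo 1 (unadjusted p = 0.0309, limma adjusted p = 0.819) and -0.046 without supplied embryo 2 (limma adjusted p = 0.999). The pattern of signs between c-ring and stalk was noticed in these data and was given no test.

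The embryos differed from each other in a way that did not follow the diet, and in all 5 complexes alike. The mean over the 83 genes was 9.59, 9.65, 9.62, 9.51 and 9.50 in supplied embryos 1 to 5 and 9.68, 9.52, 9.51, 9.56 and 9.59 in withdrawn embryos 1 to 5. These span 0.18 on the rlog scale, whereas the group means differ by -0.0027 (-0.029 without withdrawn embryo 1). The mean over all genes spans 0.0045, but normalization holds it nearly level, as it does the all-gene shares above their own mean. Neither shows how far a set of genes would vary. The span was 0.32 for 75 cytosolic and 0.10 for 76 mitochondrial ribosomal protein genes. Over the other lists it ran from 0.048 (mitochondrial biogenesis) to 1.38 (neural). Withdrawn embryo 1 ranked first in 5 of 5 complexes and supplied embryo 2 second in 5 of 5, while supplied embryos 4 and 5 and withdrawn embryos 2 and 3 filled the last 4 places in each. Complex II had the widest span, 0.26, and complex I the narrowest, 0.16. In withdrawn embryo 1, 89.2% of the 83 genes were above their own mean, in supplied embryo 2 86.7%, and in supplied embryo 5 12.0%, where over all genes the share was between 48.9% and 49.3% in every embryo. Withdrawn embryo 1 was the highest embryo for 32 of the 83 genes and supplied embryo 2 for 22, and supplied embryo 5 and withdrawn embryo 3 were the lowest for 20 each. Over all genes these shares were 13.0%, 11.2%, 9.78% and 9.57%, and withdrawn embryo 1 was also the lowest embryo for 12.7%. The median residual SD of the 83 genes was 0.0916, and that of all genes 0.0730.

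**Figure D4:**
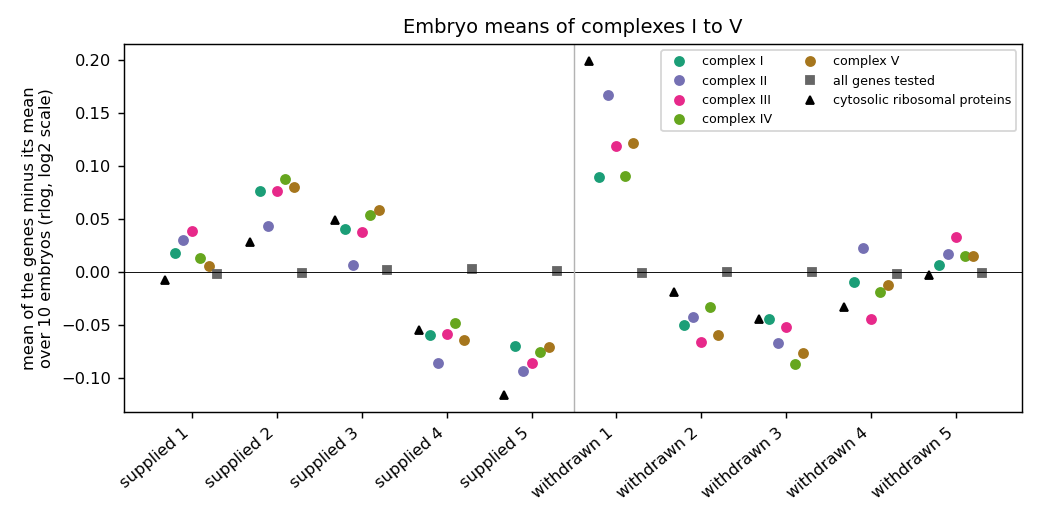
Mean of each complex in each embryo minus its mean over the 10 embryos (rlog, log2 scale), for complexes I to V (circles), 75 cytosolic ribosomal protein genes (triangles) and all 13578 genes (squares). Within either group some embryos lie above 0 and others below it, and the 5 complexes stay together in each embryo. The mean of all genes stays at 0, where normalization holds it.

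Other gene groups and genes followed this order of the embryos, some of them only in part. The mean of 75 cytosolic ribosomal protein genes was 13.06 in withdrawn embryo 1 against 12.74 to 12.91 in the other 9, and it was lowest in supplied embryo 5. The 76 mitochondrial ribosomal protein genes were also highest in withdrawn embryo 1 (8.86) and next in supplied embryo 2 (8.85), and the 18 TCA cycle genes were highest in withdrawn embryo 1 (10.74) and lowest in supplied embryo 5 (10.64). Rn45s, the ribosomal RNA precursor, ran the other way: it stood at 20.58, 20.72, 20.74, 21.19 and 21.13 in supplied and 20.56, 20.82, 21.22, 20.82 and 20.90 in withdrawn embryos, lowest in withdrawn embryo 1 and highest in withdrawn embryo 3, supplied embryo 4 and supplied embryo 5. Fos, an immediate early gene that responds to tissue handling among other stimuli, stood at 12.58 in supplied embryo 4 and at 11.70 and 12.50 in withdrawn embryos 2 and 3, against 9.81 to 10.88 in the other 7. The endothelial list mean was highest in supplied embryo 4 (9.25) and lowest in withdrawn embryo 1 (8.97). That of the gonadal soma markers was lowest in supplied embryo 4 (11.75) and highest in withdrawn embryo 1 (11.91). The gonadal soma mean did not follow the order in supplied embryo 5, where it was 11.89 although the chain genes were lowest there. The part of ribosomal RNA content, handling and cell composition in the embryo order was not tested.

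**Figure D5:**
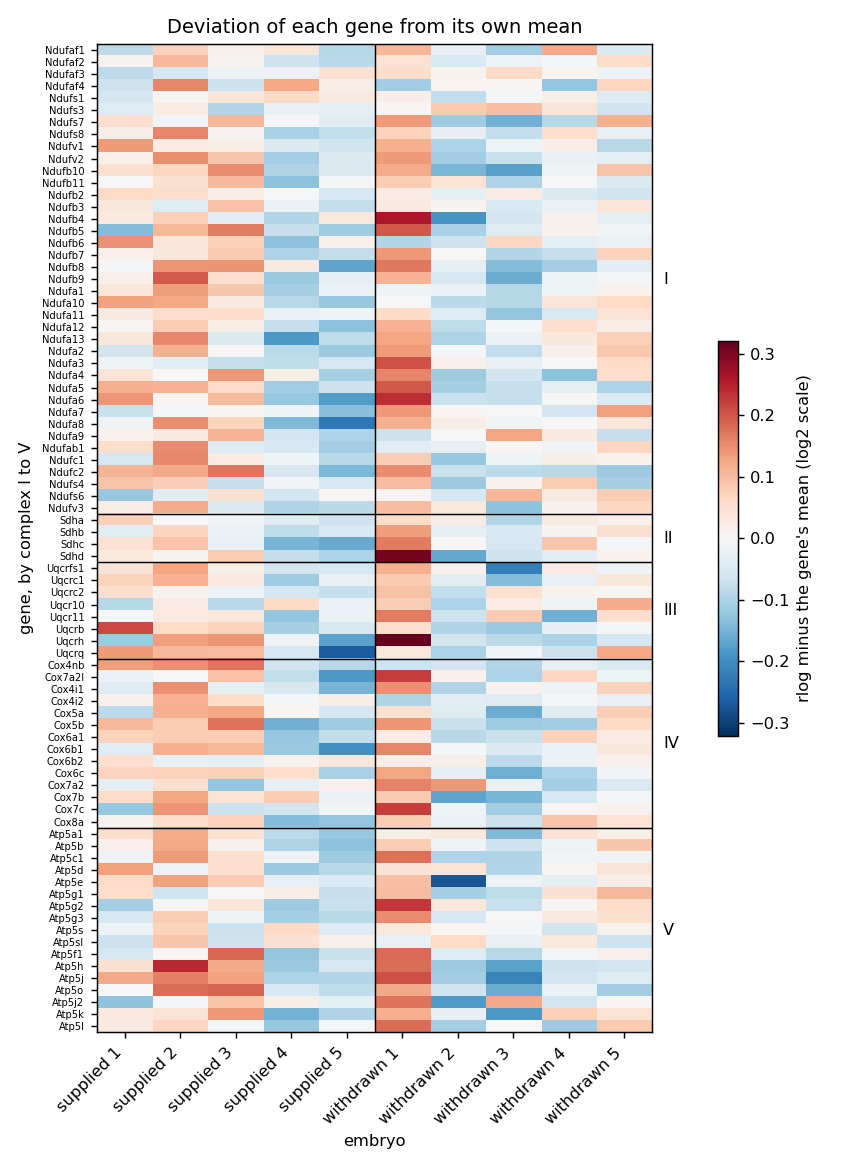
Deviation of each gene reported here from its own mean over the 10 embryos (rlog, log2 scale, red above and blue below), with genes grouped by complex I to V and supplied embryos left of the black line. The columns of withdrawn embryo 1 and supplied embryo 2 are mostly red and those of supplied embryos 4 and 5 mostly blue, across all complexes.

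When the mean over the 83 genes was put into the model as a covariate, a setting chosen after the data were seen, 2 genes had an unadjusted p under 0.05 on the higher side, where 3.42% of all genes did in the same fit, and 6 on the lower side, where 3.58% did. The smallest of the adjusted p-values among the named genes was 0.585 (limma, Cox4i2). The higher ones were Ndufa3 (unadjusted p = 0.0235) and Atp5g2 (0.0258). Among the lower ones were Cox4i2 (0.00908), Cox7b (0.0132), Cox4nb (0.0199) and Atp5h (0.0248). The covariate holds these genes themselves, so these values describe each gene relative to the others.

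Around the chain, 101 further genes in 10 lists were measured, and 0 of them passed by limma, with 2 at an unadjusted p under 0.05 (Cox16 and Epas1), where 5.30% of all genes were. The 101 had 42 differences above 0 and 59 below, with a median of -0.0080. Cox16, an assembly factor of cytochrome c oxidase, was at 7.39, 7.29, 7.27, 7.35 and 7.31 in supplied and 7.26, 7.14, 7.21, 7.26 and 7.26 in withdrawn embryos. The groups did not overlap, as in 0.810% of all genes, every withdrawn embryo being lower, and the difference was -0.096 (unadjusted p = 0.0279, limma adjusted p = 0.928). Including the Nduf assembly genes above, 7 of 11 assembly factors of complex I were above 0, 1 of 2 of complex II, 1 of 4 of complex III, 8 of 12 of complex IV and 1 of 4 of complex V. Atpif1, the inhibitor protein of the ATP synthase, was at -0.10. Of 15 electron carrier genes, 5 were above 0. Cytochrome c1 (Cyc1), listed with them although it is a complex III subunit that the symbol rule did not match, was at -0.0032. Of 18 TCA cycle genes 9 were above 0, led by citrate synthase (Cs, 0.078, limma adjusted p = 0.960), and 7 of 19 genes of mitochondrial biogenesis, with the coactivator Ppargc1a at 0.028 and the transcription factors Nrf1 and Gabpa at -0.021 and -0.032. Mitochondrial antioxidant genes had 1 of 10 above 0 and a median of -0.030. Mitochondrially encoded genes were not analysed here.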

How the data were processed

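RNA was sequenced from 10 samples. The authors deposited 1 table of rlog values (log2 scale, 13578 genes, from 4.04 to 21.2). Per the submitters' processing notes, Trim Galore 0.4.0, TopHat2 2.1.1, DESeq2 1.20.1 and build mm9 were used. The use of strand and the annotation are not given in the sources used here, and no depth can be read from rlog values, so no counting interval is given. Of the 83 genes, 27 have exons overlapping a gene on the opposite strand, 6 on the same strand, and 9 have a pseudogene named after them.

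All genes were fitted in limma 3.58.1 under R 4.3.3 (variance trend, no covariate, mean minimum of 3, which removed 0 genes, Benjamini-Hochberg over all genes, threshold 0.05), after a test on simulated data. Genes and lists were chosen with earlier results of these data known. Named genes were those with an unadjusted p under 0.05, the 2 largest differences each way and the highest and lowest level per length of each complex, and a fixed set of isoforms and core subunits. Others named were chosen after their values were seen, and 1 gene that the rule names is not reported here or drawn in the figures, but counts in the totals. Lengths are medians of principal transcripts in GENCODE for GRCm38, known for 95.8% of genes. Samples were grouped by treatment label, and other settings tried are in the closing section.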

Additional observations from a re-analysis of the deposited data

Results flagged for a closer look

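In 3 of 90 groups of 5 values tested (the named genes and the complex means, in each diet group), 1 embryo lay further from the others than Dixon's 95% critical value of 0.710 allows, where chance gives about 1 in 20 groups. Atp5a1, the alpha subunit of the ATP synthase head, was at 13.49 in withdrawn embryo 3 against 13.65 to 13.68 in the other 4 withdrawn embryos. Cox6c was at 11.80 in supplied embryo 5 against 11.96 to 11.98 in the other 4 supplied embryos. Ndufc2 was at 9.50 in withdrawn embryo 1 against 9.23 to 9.27 in the other 4 withdrawn embryos. These embryos are also at or near the ends of the order of embryo means over the 83 genes.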

How the results depend on the processing

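The count of genes past the adjusted threshold was 0 under each of the 20 other settings in which it was recounted. Among them, the setting without a filter repeats the main fit, because the mean minimum removed 0 genes. The replicate numbers gave little sign of a pairing of the embryos. Same-numbered embryos' deviations correlated between -0.364 and 0.172, with 1 of 5 pairs over 0.1 and 1 of 5 numbers matching best with itself. Such correlations cannot exclude a pairing, because other differences between the embryos enter them too. With the replicate number as a block, 1 gene was lower at an unadjusted p under 0.05 instead of 3. With the embryos of 1 title number averaged, 2 were higher instead of 1 and 1 was lower, and 7 genes of complex III were above 0 instead of 4. Sample weights left 0 higher. Leaving out 1 embryo in turn gave 0 to 2 higher and 1 to 7 lower, the 7 without withdrawn embryo 1. Genes above 0 then numbered 11 to 22 in complex I (11 without supplied embryo 5), 2 to 4 in II, 2 to 5 in III, 5 to 8 in IV and 5 to 13 in V, and the median differences of complexes I, III, IV and V crossed 0.

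Settings added after seeing the data were 2 covariates. With the mean of the 83 genes, 2 genes were higher and 6 lower. With the mean of the cytosolic ribosomal proteins, 11 genes of complex I, 2 of II and 4 of V were above 0. The cause of these shifts was not tested.

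Of 40 named genes 28, Cox4i2, Cox7b, Cox4nb and Ndufa3 among them, kept their sign in the 20 settings run for single genes. The ribosomal protein covariate was not run for these. Signs turned for 12 with small differences. With title numbers averaged, Atp5a1 was at 0.026, Atp5c1 at 0.028, Cox5a at 0.0017, Cox5b at 0.0088, Cox6a1 at 0.022, Uqcrc1 at 0.00098 and Uqcrfs1 at 0.0063. Quantile normalization put Atp5b at -0.0044, Atp5s at 0.0096 and Sdha at -0.0095, and sample weights put Sdhd at -0.020. Without 1 embryo in turn, Atp5a1 ranged from -0.038 to 0.028, Atp5b from -0.00061 to 0.063, Atp5c1 from -0.063 to 0.016, Atp5s from -0.021 to 0.014, Cox5b from -0.080 to 0.0018, Cox6a1 from -0.047 to 0.0054, Ndufv1 from -0.061 to 0.0019, Sdha from -0.0022 to 0.038, Sdhd from -0.054 to 0.064 and Uqcrfs1 from -0.062 to 0.021. Depth is unknown, and rlog values understate differences of weakly expressed genes such as Cox4i2 most.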

Other observations

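Nnt, the proton-pumping transhydrogenase of the inner mitochondrial membrane, spread more widely than the chain genes and in another order of the embryos. It stood at 10.57, 10.26, 10.18, 10.81 and 10.80 in supplied and at 10.56, 10.19, 10.28, 10.52 and 10.78 in withdrawn embryos. The 4 lowest were supplied embryos 2 and 3 and withdrawn embryos 2 and 3. These embryos share the leading number of their titles, within their group and across the groups, and the labels do not say what it marks. The difference between the diets was -0.057 (unadjusted p = 0.645, limma adjusted p = 0.995). Citrate synthase (Cs) stood at 11.40, 11.39, 11.36, 11.31 and 11.24 in supplied and 11.35, 11.45, 11.37, 11.45 and 11.47 in withdrawn embryos, with 3 withdrawn embryos above all supplied ones (unadjusted p = 0.0966, limma adjusted p = 0.960), whereas the chain genes were lowest in supplied embryos 4 and 5 and withdrawn embryos 2 and 3. Both genes were chosen after their values were seen.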
